A study of Mus musculus with 40 samples.

Results

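The 10 genes described here code for potassium channels and calcium clearance proteins of T cells: Kcna2, Kcna3 and Kcnn4 (potassium channels), Trpm4 (a sodium channel opened by calcium), Atp2a2 and Atp2a3 (calcium pumps of the endoplasmic reticulum), Atp2b1 and Atp2b4 (calcium pumps of the plasma membrane), Slc8b1 (the mitochondrial sodium-calcium exchanger) and Mcu (the pore of the mitochondrial calcium uniporter). They were chosen by symbol, with earlier results of these data known, and all 10 were found among the 21950 genes of the table. Their levels were measured by RNA-seq in 24 libraries of mouse CD4+ T cells, in 8 groups of 3. Conventional T cells (Tconvs) and thymus-derived regulatory T cells (tTregs, called nTreg in the labels) were each sequenced at rest and activated. Regulatory T cells induced in vitro (iTregs) were sequenced at rest, restimulated, and restimulated with either of 2 inhibitors, CM-4620, which blocks ORAI calcium channels, or CsA (cyclosporin A), which blocks the phosphatase calcineurin. Per the study's methods, cells came from C57BL/6 mice with a fluorescent Foxp3 reporter. Tconvs and tTregs were sorted from spleens of mice aged 2 to 4 months. iTregs were made from naive Foxp3- cells of mice aged 6 weeks. These cells were stimulated through CD3 and CD28 with 2 ng/ml TGF-β and IL-2 for 4 days, then sorted as Foxp3+. They were left for 1 day in medium with IL-2 before the same 2 receptors were engaged again. Cell type, mouse age and time in culture therefore differ together between iTregs and the other cells, and cannot be told apart. Inhibitor doses and the time of stimulation of the sequenced cells are not given in the sources used here.

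A T cell takes up calcium through ORAI channels after its endoplasmic reticulum store has been emptied. The inflow makes the membrane potential less negative, which weakens the drive on further inflow. Kv1.3 (Kcna3), opened by voltage, and KCa3.1 (Kcnn4), opened by calcium through calmodulin, let potassium out and restore the potential, whereas Trpm4 lets sodium in and depolarizes the cell. Calcium is then cleared into the store by SERCA pumps (Atp2a2 and Atp2a3 code for SERCA2 and SERCA3), out of the cell by PMCA pumps (Atp2b1 and Atp2b4 code for PMCA1 and PMCA4), and into mitochondria through the uniporter, from which Slc8b1 returns it to the cytosol.

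Reads on genes numbered from 5256800 to 15685200 a library, and 3 reads, the limit that a count of 0 allows, were worth between 2.12 and 5.45 normalized counts. A normalized count is a gene's read count divided by a size factor of its library. Foxp3, the gene that defines the sorted cells, stood at 10.4 ± 0.835 normalized counts (SD, n = 3) in resting Tconvs, 7537 ± 285 in resting tTregs and 1280.0 ± 88.4 in resting iTregs, as the labels have it. The 4 regulatory T cell markers (Foxp3, Il2ra, Ikzf2 and Ctla4) summed to between 458 and 478 in resting Tconvs. In activated Tconvs their sum lay between 5116 and 5357. By the thresholds of the next paragraph, Foxp3, Il2ra and Ctla4 were higher in activated Tconvs and in resting iTregs than in resting Tconvs. Ikzf2 was higher in neither, and it was lower in resting iTregs than in resting tTregs. Among markers of other cells, the 5 of B cells summed to between 20.2 and 31.9 in resting Tconvs, 127.9 and 142.7 in resting tTregs, 56.9 and 63.7 in resting iTregs and 112.6 and 123.9 in restimulated iTregs, made up mostly of Cd79b in tTregs and of Ebf1 in restimulated iTregs, while Ms4a1 had no read. Of the 3 platelet markers Pf4 and Ppbp had no read and Itga2b was highest in resting Tconvs (26.1 ± 6.04), and the 5 erythroid markers summed to at most 30.3. The summed level of the 2 NK cell markers was 0 in all tTreg and iTreg libraries between 19.3 and 30.9 in resting Tconvs and between 0.898 and 3.54 in activated Tconvs. The 5 myeloid markers summed to between 779.9 and 1853, nearly all of it Cst3, while Lyz2 was at 0 in 6 of the 8 groups. The part of these markers in the results was not tested. In bulk samples, fewer cells that express a gene and less RNA per cell cannot be told apart. The labels do not say that the 3 samples of a group came from separate animals or cultures, so p-values measure the spread between these samples, which may be technical.

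Tests covered genes that reached 10 normalized counts in 3 or more libraries of a fit. A change was called where the adjusted p was under 0.05 and the log2 fold change exceeded 0.5 in size. Fold changes are on the scale of log2(normalized count + 1), which understates changes of low genes. The plot of all members by library shows the values that the next paragraphs go through.

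**Figure D1:**
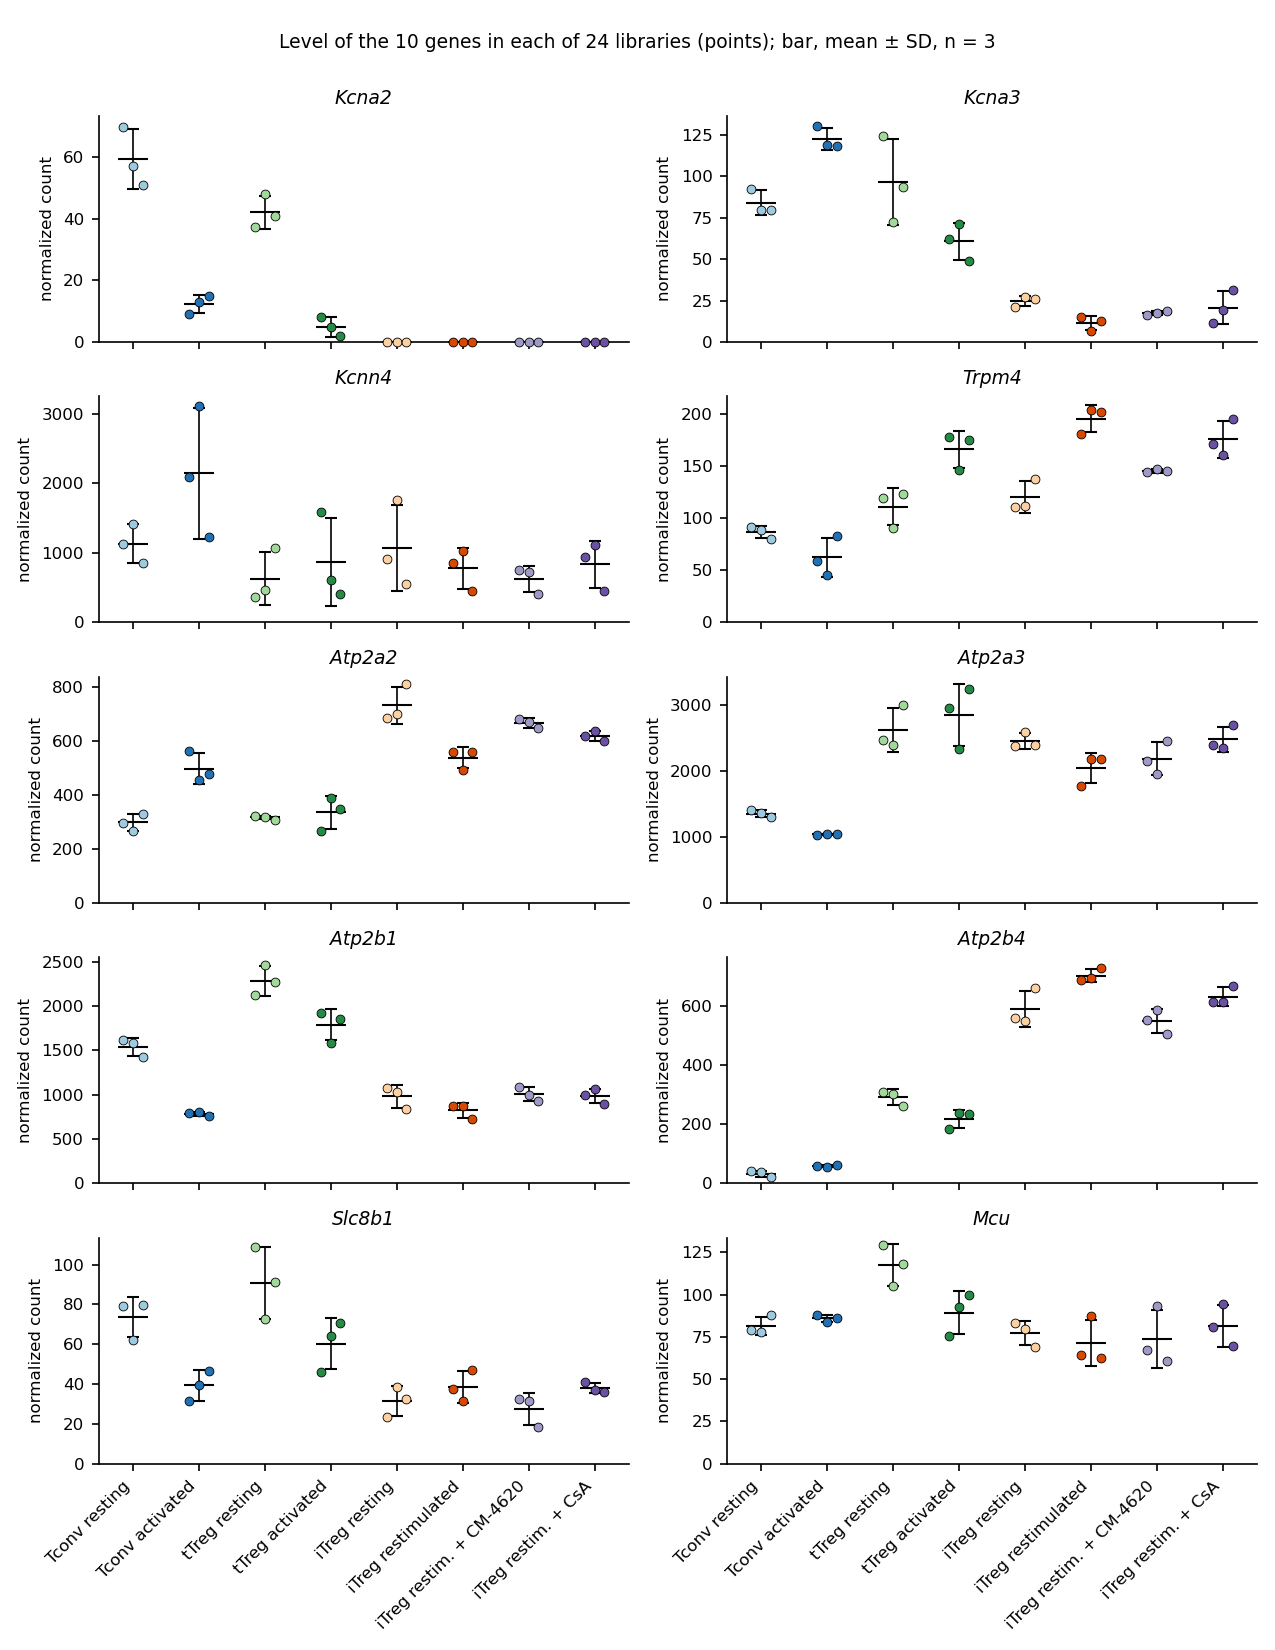
Normalized count (y axis, linear, from 0) of each of the 10 genes in the 8 groups (x axis); points are the 24 libraries and bars the mean ± SD of 3. Kcna2 lies at 0 in all 12 iTreg libraries, Atp2b4 has a mean of 32.6 in resting Tconvs and 704.6 in restimulated iTregs, and the 3 libraries of a group lie far apart for Kcnn4.

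Kcna2 and Kcna3 code for the voltage-gated channels Kv1.2 and Kv1.3, of which Kv1.3 is the one known for its role in T cells. They are neighbours on mouse chromosome 3 (GRCm38, GENCODE M21), with Kcna3 at chr3:107036169-107038070 and Kcna2 at chr3:107101146-107115005, both on the plus strand and 63075 bases apart. Kcna3 is a single exon in that annotation, and no exon of another gene overlaps either of them. Both were lowest in iTregs.

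Kcna2 had 69.9, 57.2 and 50.9 normalized counts in the 3 resting Tconv libraries and 37.2, 48.0 and 41.0 in resting tTregs. It had 8.98, 12.9 and 14.9 in activated Tconvs and 8.08, 4.73 and 1.82 in activated tTregs, where 1 library rested on 1 read. No read was found in any of the 12 iTreg libraries, against 359 reads in the other 12. Resting and activated groups did not overlap in either cell type. The NK cell markers were also highest in resting Tconvs and had no read in tTregs and iTregs. Itga2b and the summed CD8 T cell markers were highest in resting Tconvs too. The part of these markers in the result was not tested. Against the value of 3 reads per library in resting iTregs, the mean of resting Tconvs was at least 21.0-fold higher and that of resting tTregs at least 14.9-fold. The mean of activated Tconvs was at least 4.34-fold higher and that of activated tTregs at least 1.73-fold. On activation Kcna2 fell in Tconvs, with a log2 fold change of -2.20 (SE 0.36, adjusted p = 9.44e-05), and in tTregs, with -3.02 (SE 0.36, adjusted p = 3.3e-05). In activated cells it was lower in tTregs than in Tconvs, at -1.30 (SE 0.36, adjusted p = 0.00632). The difference between the responses to activation did not pass the test, at -0.82 (SE 0.51, adjusted p = 0.226) with a 95% interval of -1.92 to 0.28. With quantile normalization it did, at -1.25 with an adjusted p of 0.0448.

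Kcna3 had 92.6, 79.7 and 79.9 normalized counts in resting Tconvs and 130.2, 119 and 118 in activated Tconvs. It had 124, 72.7 and 93.4 in resting tTregs and 61.9, 71.0 and 49.0 in activated tTregs. The activated libraries thus lay above all resting ones in Tconvs and below all resting ones in tTregs. In resting iTregs it had 21.1, 27.2 and 25.8, below every Tconv and tTreg library. Kcna3 rose on activation of Tconvs, by 0.54 (SE 0.20, adjusted p = 0.0279) on the log2 scale, and fell in tTregs, at -0.65 (SE 0.20, adjusted p = 0.0206). The responses differed by -1.19 (SE 0.28, adjusted p = 0.00371), tTregs minus Tconvs. In resting iTregs Kcna3 was 3.32-fold lower than in resting Tconvs (-1.73 on the log2 scale, adjusted p = 1.39e-06) and 3.74-fold lower than in resting tTregs (-1.90, adjusted p = 5.42e-07). In activated cells it was 2.02-fold lower in tTregs than in Tconvs (-1.02, adjusted p = 0.000443). The call in Tconvs was lost without replicate 1, 2 or 3 of activated Tconvs and without replicate 2 or 3 of resting Tconvs, with adjusted p between 0.0506 and 0.0824, with quantile normalization (0.47, adjusted p = 0.0653) and with all 24 libraries in one fit (adjusted p = 0.108). The call in tTregs was lost without replicate 3 of activated tTregs (adjusted p = 0.087), without replicate 1 of resting tTregs (0.11), with only the tTregs in the fit (0.104) and with all 24 libraries (0.0794), while the difference between the responses was called with each library left out.

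The 250 bases before the start of Kcna3 are shown because this gene was low in iTregs, and those before the RefSeq start of Atp2b4, a gene described below, because it was high there. Both are from the RefSeq promoter table (GRCm38.p6), which matched 7 of the 10 genes, and run 5′ to 3′ on the gene's strand. Capitals mark GGAAA, the core of sites for NFAT factors, on either strand. TGANTCA (AP-1) and TGTTTAC (forkhead factors) were also searched on both strands and were in neither window. The window of Kcna3 is chr3:107035912-107036161 on the plus strand. That of Atp2b4 is chr1:133753748-133753997 on the minus strand, which lies inside the gene, upstream of the first exon of its shorter transcripts. The annotated 5′ end of the whole gene is at chr1:133801041, and the bases before that end were not searched. What is given for the Atp2b4 window therefore does not describe the promoter at that end.
Kcna3: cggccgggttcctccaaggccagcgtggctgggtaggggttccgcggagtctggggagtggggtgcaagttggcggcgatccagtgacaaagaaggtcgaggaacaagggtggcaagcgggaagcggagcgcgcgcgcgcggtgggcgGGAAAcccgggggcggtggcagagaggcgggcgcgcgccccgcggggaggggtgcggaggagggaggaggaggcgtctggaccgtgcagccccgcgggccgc
Atp2b4: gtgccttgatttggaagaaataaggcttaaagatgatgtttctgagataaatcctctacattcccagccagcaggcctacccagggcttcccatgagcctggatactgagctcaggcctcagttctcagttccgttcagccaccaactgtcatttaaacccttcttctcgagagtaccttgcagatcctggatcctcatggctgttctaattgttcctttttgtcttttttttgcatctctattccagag
GGAAA stood once in the Kcna3 window, 102 to 98 bases before the start, and was not found in that of Atp2b4. It was in 55.6% of the 32817 promoter windows of this length, TGANTCA in 6.75% and TGTTTAC in 3.16%. G and C made up 74.4% of the Kcna3 window and 45.6% of the Atp2b4 window. These matches are letters in a window and no measure of binding.

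Kcnn4 (chr7:24370263-24386690, plus strand) codes for KCa3.1. It had 1127, 1409.7 and 858 normalized counts in resting Tconvs and 2084, 3104 and 1230.4 in activated Tconvs, then 357, 461 and 1068 in resting tTregs and 1588, 614 and 409 in activated tTregs. It had 909, 1757 and 546 in resting iTregs and 853, 1028 and 450.5 in restimulated iTregs. Libraries of all neighbouring groups, ordered by mean, overlapped. The spread within groups was 0.72 on the log2 scale, larger than that of 98.9% of the 8313 genes with a mean of at least 100 normalized counts. The deviations of Kcnn4 from its group means followed those of many genes: 92 of them had a correlation above 0.9 with it over the 24 libraries, led by Xbp1 (0.98) and Ak3 (0.98), and the correlation with the first principal component of all such deviations, which held 42% of their variance, was 0.82. The points share libraries, and the part of this component in the results for Kcnn4 was not tested.

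Kcnn4 did not pass the test in Tconv activation, at 0.85 (SE 0.53, adjusted p = 0.178) with an interval of -0.28 to 1.98, nor in tTreg activation, at 0.39 (SE 0.53, adjusted p = 0.598), where the value was -0.16 without replicate 1 of activated tTregs. With only the resting and activated Tconvs in the fit, the call in Tconvs was made, with an adjusted p of 0.0124. In activated cells it was 2.71-fold lower in tTregs than in Tconvs, at -1.44 (SE 0.53, adjusted p = 0.0283), though their libraries overlapped. This call was lost with DESeq2 on the recovered reads (adjusted p = 0.0507), and without replicate 1 or 2 of activated Tconvs or replicate 2 or 3 of activated tTregs, with adjusted p between 0.0665 and 0.138. In resting cells the difference of -0.98 did not pass (adjusted p = 0.135) and did so without replicate 3 of resting tTregs, at -1.45 (adjusted p = 0.0381). Resting iTregs differed from activated Tconvs by -1.06 (adjusted p = 0.102), and by -1.5 (adjusted p = 0.0352) without replicate 2 of resting iTregs.

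Trpm4 (chr7:45302632-45333780, minus strand) moved in opposite directions in the 2 cell types. It had 91.5, 88.2 and 79.9 normalized counts in resting Tconvs and 58.4, 45.7 and 82.8 in activated Tconvs, where 1 activated library lay among the resting ones. It had 119, 90.8 and 123 in resting tTregs and 178, 146 and 174 in activated tTregs, with all activated libraries above the resting ones. In iTregs it had 111, 112 and 137 at rest and 180.3, 204 and 202 after restimulation, again without overlap. Trpm4 fell on activation of Tconvs, with a log2 fold change of -0.51 (SE 0.20, adjusted p = 0.0355), and rose in tTregs by 0.58 (SE 0.20, adjusted p = 0.0322) and on restimulation of iTregs by 0.70 (SE 0.11, adjusted p = 0.000272). The difference between the responses of tTregs and Tconvs was 1.09 (SE 0.28, adjusted p = 0.00602). In activated cells Trpm4 was 2.71-fold higher in tTregs than in Tconvs (1.44 on the log2 scale, adjusted p = 1.75e-05). The fall in Tconvs is close to both thresholds: it was lost with own size factors (-0.47), a pseudocount of 5 (-0.48), no filter (adjusted p = 0.05002), edgeR (adjusted p = 0.0618) and DESeq2 (adjusted p = 0.0846), and without replicate 1 or 2 of either group of Tconvs, with values between -0.49 and -0.31. The rise in tTregs was lost without replicate 1 or 3 of activated tTregs or replicate 2 of resting tTregs (adjusted p between 0.0859 and 0.126) and with only the tTregs in the fit (0.057).

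**Figure D2:**
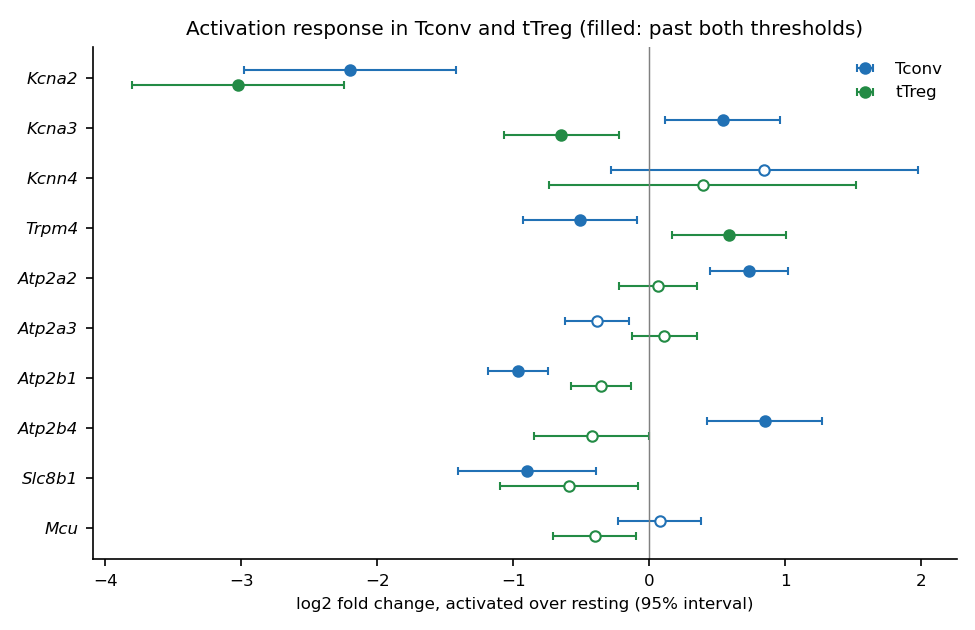
Log2 fold change of activated over resting cells (x axis) for each of the 10 genes (y axis) in Tconvs (blue) and tTregs (green), with 95% intervals from the limma fit; filled points passed both thresholds. Kcna3 and Trpm4 stand on opposite sides of 0 in the 2 cell types, and Kcna2 is left of 0 in both.

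The pumps of the endoplasmic reticulum differed in which cells they were high in. Atp2a3 (chr11:72961169-72993044, plus strand), whose product SERCA3 is known from blood cells, had 1410.0, 1359 and 1296 normalized counts in resting Tconvs and 1028, 1039 and 1047 in activated Tconvs. It had 2466, 2389 and 3010.3 in resting tTregs, 2955, 2332 and 3253 in activated tTregs and 2374, 2596 and 2401 in resting iTregs. Every regulatory library was above every Tconv library. At rest Atp2a3 was 1.93-fold higher in tTregs than in Tconvs, at 0.95 (SE 0.11, adjusted p = 5.18e-06) on the log2 scale, and 1.81-fold higher in iTregs than in Tconvs, at 0.86 (SE 0.11, adjusted p = 5.39e-06). Resting iTregs and tTregs overlapped, at -0.09 with an interval of -0.33 to 0.15.

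Atp2a2 (chr5:122453513-122502225, minus strand) codes for SERCA2, the form found in most cells. It had 296, 267 and 330.0 normalized counts in resting Tconvs and 320.2, 319 and 308 in resting tTregs, against 683, 699 and 809 in resting iTregs. It had 561, 453 and 475 in activated Tconvs and 267, 387 and 349 in activated tTregs. All 12 iTreg libraries were above all resting ones of the other cells. Atp2a2 rose on activation of Tconvs by 0.73 (SE 0.13, adjusted p = 0.000231) and did not pass the test in tTregs, at 0.06 (SE 0.13, adjusted p = 0.743). The difference between these responses was -0.67 (SE 0.19, adjusted p = 0.0115). Resting iTregs exceeded resting Tconvs 2.45-fold, at 1.29 (SE 0.13, adjusted p = 4.7e-07), and resting tTregs 2.30-fold, at 1.20 (SE 0.13, adjusted p = 1.11e-06). In activated cells Atp2a2 was 1.5-fold lower in tTregs than in Tconvs (-0.58, adjusted p = 0.00169), a call that fell under the fold threshold without replicate 1 of activated Tconvs (-0.49) or of activated tTregs (-0.43). A short antisense gene, Gm43361, overlaps 1.36% of the exon bases of Atp2a2.

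Atp2a2 took 18 ± 2.02% (SD, n = 3) of the reads of both SERCA genes in resting Tconvs and 32.3 ± 2.66% in activated Tconvs. In resting tTregs its share was 10.8 ± 1.38% and in activated tTregs 10.7 ± 3.11%. In the iTreg groups it was between 20 ± 1.64% (CsA) and 23.5 ± 2.42% (CM-4620). The shares are taken within a library and do not depend on its scaling, and as they are of reads and the genes differ in length they compare groups, not molecules. The sum of both genes was 1653 ± 46.4 normalized counts in resting Tconvs, 2938 ± 332 in resting tTregs and 3187 ± 121 in resting iTregs.

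**Figure D3:**
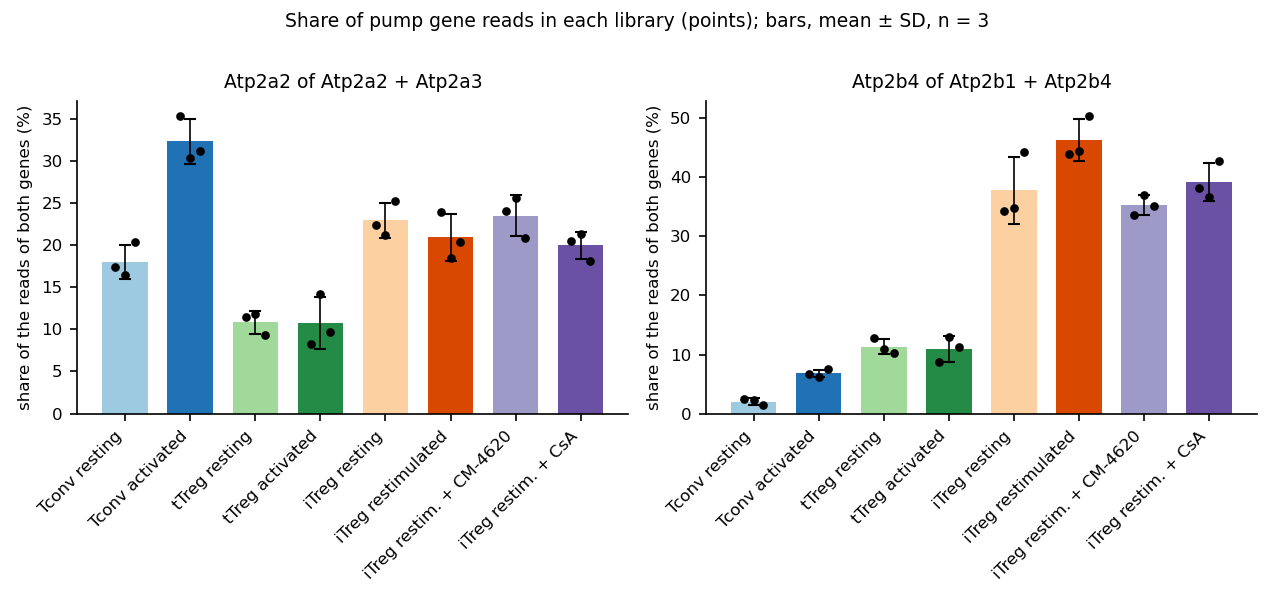
Share of the reads of a pair of pump genes (y axis, percent, from 0) held by Atp2a2 against Atp2a3 (left) and by Atp2b4 against Atp2b1 (right) in the 8 groups (x axis); bars are the mean ± SD of 3 libraries, shown as points. The Atp2a2 share is highest in activated Tconvs, and the Atp2b4 share is below 13% in all Tconv and tTreg libraries and above 33% in all iTreg libraries.

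The pumps of the plasma membrane had different patterns over the cell types. Atp2b4 (chr1:133699457-133801041, minus strand) had 40.1, 36.6 and 21.1 normalized counts in resting Tconvs and 57.5, 53.5 and 61.6 in activated Tconvs. It had 310.2, 304 and 261 in resting tTregs and 183, 237 and 234 in activated tTregs. In iTregs it had 559.7, 552 and 661 at rest and 688, 695 and 731 after restimulation. Groups of different cell types did not overlap, in the order Tconvs, tTregs, iTregs. At rest Atp2b4 was 9.0-fold higher in tTregs than in Tconvs, at 3.17 (SE 0.20, adjusted p = 4.87e-09) on the log2 scale. Resting iTregs were 18.2-fold above resting Tconvs, at 4.19 (SE 0.20, adjusted p = 6.32e-11), 10.1-fold above activated Tconvs, at 3.34 (SE 0.20, adjusted p = 2.88e-09), and 2.02-fold above resting tTregs, at 1.02 (SE 0.20, adjusted p = 0.000278). On activation it rose in Tconvs by 0.85 (SE 0.20, adjusted p = 0.00162). In tTregs the value was -0.42 (SE 0.20, adjusted p = 0.109), which did not pass, and the difference between the responses was -1.27 (SE 0.28, adjusted p = 0.0022).

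Atp2b1 (chr10:98914406-99026143, plus strand), which codes for the PMCA pump found in nearly all cells, had 1615, 1579 and 1427 normalized counts in resting Tconvs and 797, 802 and 761 in activated Tconvs. It had 2126, 2465 and 2275 in resting tTregs, 1924, 1589 and 1860.1 in activated tTregs and 1073, 1035 and 834 in resting iTregs. The libraries of resting tTregs were above all others. Atp2b1 fell on activation of Tconvs, with a log2 fold change of -0.97 (SE 0.10, adjusted p = 1.2e-06), and the value in tTregs, -0.36 (SE 0.10, adjusted p = 0.0159), was under the fold threshold. The responses differed by 0.61 (SE 0.15, adjusted p = 0.00409). In resting iTregs Atp2b1 was 1.58-fold lower than in resting Tconvs, at -0.66 (SE 0.10, adjusted p = 3.82e-05), and 2.34-fold lower than in resting tTregs, at -1.23 (SE 0.10, adjusted p = 5.21e-08). Resting iTregs and activated Tconvs differed by 0.31, under the fold threshold.

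Atp2b4 took 2.05 ± 0.52% (SD, n = 3) of the reads of both PMCA genes in resting Tconvs, 11.3 ± 1.3% in resting tTregs and 37.8 ± 5.6% in resting iTregs. Its share in restimulated iTregs was 46.3 ± 3.57%, and the lowest iTreg library, one with CM-4620, stood at 33.7%. The sum of both genes was 1573 ± 109.6 normalized counts in resting Tconvs, 1571 ± 70.2 in resting iTregs and 2580.3 ± 170.8 in resting tTregs. Resting Tconvs and iTregs had close sums and different shares, and activated Tconvs had a sum of 844 ± 18.7.

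Slc8b1 (chr5:120511168-120534024, plus strand), whose product NCLX releases calcium from mitochondria, had 79.2, 61.9 and 79.9 normalized counts in resting Tconvs, 31.4, 39.7 and 46.7 in activated Tconvs, 109, 72.7 and 91.1 in resting tTregs, 45.8, 64.3 and 70.8 in activated tTregs and 23.2, 38.3 and 32.6 in resting iTregs. The highest iTreg library at rest was below the lowest resting Tconv and tTreg library. It fell on activation of Tconvs, with a log2 fold change of -0.90 (SE 0.24, adjusted p = 0.0042), and the value in tTregs was -0.59 (SE 0.24, adjusted p = 0.0689), which passed without replicate 2 of resting tTregs (-0.74, adjusted p = 0.0477) and with edgeR (adjusted p = 0.0496). Resting iTregs were 2.34-fold below resting Tconvs, at -1.22 (SE 0.24, adjusted p = 0.000279), and 2.86-fold below resting tTregs, at -1.51 (SE 0.24, adjusted p = 3.99e-05).

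Mcu (chr10:59446984-59616692, minus strand) varied least of the 10 between groups, with group means between 71.5 ± 13.8 normalized counts in restimulated iTregs and 118 ± 12.3 in resting tTregs. It had 129.7, 105 and 118 in resting tTregs, 79.2, 77.8 and 87.8 in resting Tconvs and 83.3, 79.7 and 69.0 in resting iTregs. Resting tTregs were thus above both other resting cell types. They exceeded resting Tconvs 1.43-fold, at 0.52 (SE 0.14, adjusted p = 0.00697), a call that fell under the fold threshold with quantile normalization (0.41) and without replicate 2 of resting Tconvs (0.49) or replicate 1 of resting tTregs (0.45). Resting iTregs were 1.52-fold below resting tTregs, at -0.60 (SE 0.14, adjusted p = 0.00156).

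Activation changed more genes in Tconvs than in tTregs, among the 10 members and among all genes. Replicates differed by 12.7 to 36.3 times the counting variance within the tTreg groups and by 3.01 to 9.35 times within the Tconv groups. Reads on genes numbered from 5256800 to 9893050 in tTreg libraries and from 10126900 to 15685200 in Tconv libraries. The part of this spread and depth in the difference between the cell types was not tested. In Tconvs 7 of 10 changed, where 50.2% of all 11495 genes tested did, and the resting and activated libraries of 7 did not overlap, as in 73.9% of all genes. Kcna3, Atp2a2 and Atp2b4 rose (24.5% of all genes did) and Kcna2, Trpm4, Atp2b1 and Slc8b1 fell (25.7%). In tTregs 3 of 10 changed, against 21.9% of all genes, with Trpm4 higher (11.9% of all genes) and Kcna2 and Kcna3 lower (10%), and 7 did not overlap, as in 37.8% of all genes. This count was 1, Kcna2 alone, without replicate 3 of activated tTregs and with only the tTregs in the fit. The median absolute log2 fold change was 0.79 over the members and 0.59 over all genes in Tconvs, and 0.41 and 0.33 in tTregs. The responses of the 2 cell types differed for 5 members, where 34.7% of all genes differed. The response of tTregs minus that of Tconvs was above 0 for Trpm4 and Atp2b1 (17.7% of all genes) and below 0 for Kcna3, Atp2a2 and Atp2b4 (17%). Atp2a3 missed the fold threshold there, at 0.495 (SE 0.16, adjusted p = 0.0215), and passed it without replicate 3 of resting Tconvs, of activated Tconvs or of resting tTregs, or replicate 2 of activated tTregs, with values between 0.502 and 0.632. Mcu, at -0.48 (SE 0.20, adjusted p = 0.0767), passed without replicate 3 of activated tTregs (-0.56, adjusted p = 0.0499).

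Between cell types at rest, 4 of 10 members differed between tTregs and Tconvs, against 38.6% of all genes, and Atp2a3, Atp2b1, Atp2b4 and Mcu were all higher in tTregs, as were 20.5% of all genes (18.2% were lower). Libraries of 5 members did not overlap, against 58.5% of all genes. In activated cells 9 of 10 differed, against 48.2% of all genes. Trpm4, Atp2a3, Atp2b1, Atp2b4 and Slc8b1 were higher in tTregs (25.6% of all genes), and Kcna2, Kcna3, Kcnn4 and Atp2a2 were lower (22.6%). Libraries of 7 did not overlap, against 64.7% of all genes. The call of Slc8b1, at 0.60 (SE 0.24, adjusted p = 0.04), was lost with own size factors, quantile normalization, no filter, DESeq2 or only the groups compared (adjusted p between 0.0519 and 0.174) and without replicate 1 or 2 of activated Tconvs or replicate 2 or 3 of activated tTregs (adjusted p between 0.0725 and 0.156). The median absolute log2 fold change of the members was 1.24 here, against 0.55 over all genes, and 0.50 against 0.44 at rest.

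Resting iTregs differed from resting Tconvs in 7 of 10 members, against 63.6% of all genes, and from resting tTregs in 7 of 10, against 63.4%, shares close to those of all genes. These 2 comparisons share the iTreg libraries. Against resting Tconvs, 32.8% of all genes were higher in iTregs and 30.8% lower, and against resting tTregs 32.3% were higher and 31.1% lower. Libraries of 8 members did not overlap in the comparison with resting Tconvs (80.5% of all genes) and those of 7 in that with resting tTregs (74.9%). Atp2a2 and Atp2b4 were higher and Kcna2, Kcna3, Atp2b1 and Slc8b1 lower in iTregs in both, Atp2a3 was higher than in Tconvs, and Mcu was lower than in tTregs. From activated Tconvs resting iTregs differed in 6 of 10, against 41.6% of all genes, with Trpm4, Atp2a2, Atp2a3 and Atp2b4 higher (22.9% of all genes) and Kcna2 and Kcna3 lower (18.7%), and libraries of 8 did not overlap, against 67.7% of all genes. The call of Atp2a2 there, 0.56 (SE 0.13, adjusted p = 0.00253), fell under the fold threshold with quantile normalization (0.49), without replicate 2 of activated Tconvs (0.496) and without replicate 3 of resting iTregs (0.48). With quantile normalization Slc8b1 was also called, at -0.75 against -0.33 as deposited.

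Between stimulated cells, restimulated iTregs and activated tTregs, 6 of 10 differed, against 59.3% of all genes (30.5% higher and 28.8% lower in iTregs), and libraries of 7 did not overlap, against 71.5% of all genes. Atp2a2 (0.70) and Atp2b4 (1.70) were higher and Kcna2, Kcna3 (-2.35), Atp2b1 (-1.12) and Slc8b1 (-0.63) lower in iTregs on the log2 scale. For Kcna2 this rests on 6, 5 and 1 reads in the activated tTreg libraries. Against the value of 3 reads per library in restimulated iTregs, their mean was at least 1.61-fold higher, and the library with 1 read lay below that value. For Slc8b1 the adjusted p was 0.026, and the call was lost without replicate 1 or 2 of restimulated iTregs or replicate 2 or 3 of activated tTregs, with values between -0.61 and -0.49. Atp2a3, at -0.47, passed the fold threshold with quantile normalization (-0.63), without replicate 2 or 3 of restimulated iTregs and without replicate 2 of activated tTregs, with values between -0.61 and -0.52.

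**Figure D4:**
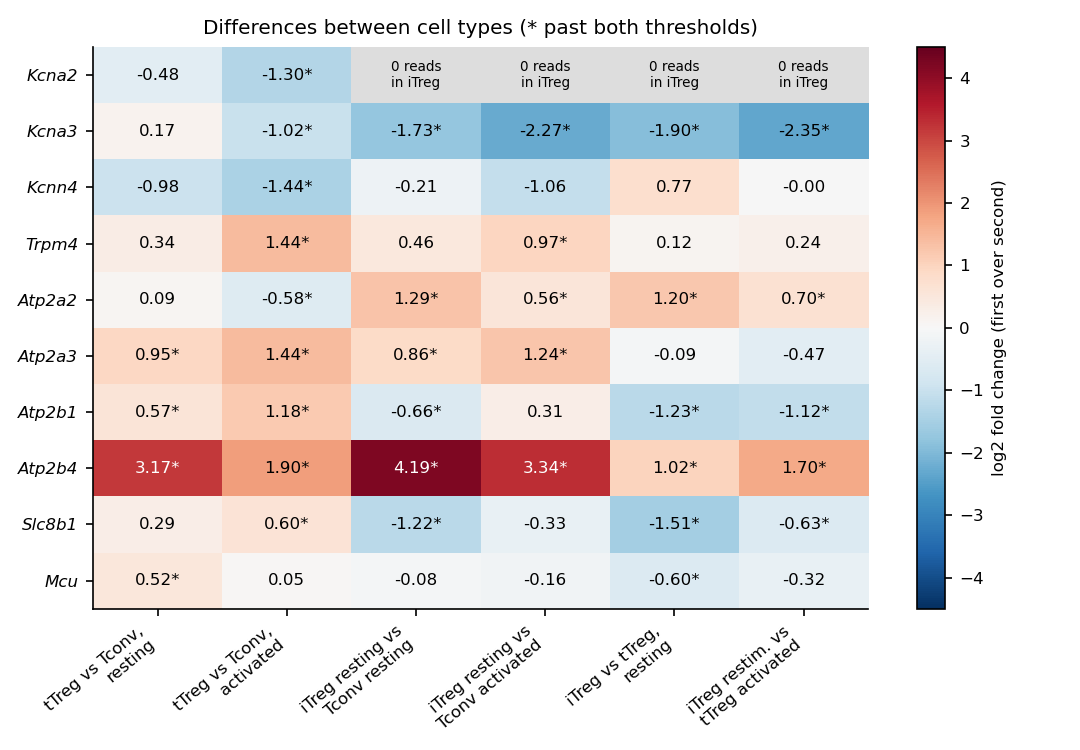
Log2 fold change of the first over the second group (color and number) for each gene (rows) in 6 comparisons between cell types (columns); an asterisk marks a value past both thresholds, and grey cells are Kcna2 where iTregs had 0 reads. Atp2b4 is positive in every column and Kcna3 negative in every column but the first.

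Within iTregs the members moved less. On restimulation 2 of the 9 members tested changed, against 12.8% of all 11105 genes tested in these 12 libraries (Kcna2, without reads, was not tested). Of all genes 6.7% rose and 6.13% fell. Libraries of 5 of the 9 did not overlap, against 40.8% of all genes. Kcna3 fell, with a log2 fold change of -1.10 (SE 0.35, adjusted p = 0.0285), from 21.1, 27.2 and 25.8 to 15.1, 6.72 and 12.7 normalized counts, and Trpm4 rose as given above. The fall of Kcna3 rests on between 6 and 34 reads a library. It was lost with DESeq2 (adjusted p = 0.0513) and without replicate 2 or 3 of resting iTregs or replicate 2 of restimulated iTregs, with adjusted p between 0.0687 and 0.129 and values between -1.06 and -0.78. Another 3 members passed on the adjusted p and stayed under the fold threshold. They were Atp2a2, at -0.44 (SE 0.08, adjusted p = 0.00057), Atp2a3, at -0.27 (SE 0.09, adjusted p = 0.041), and Atp2b4, at 0.26 (SE 0.08, adjusted p = 0.027).

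Of the other members in stimulated iTregs, Atp2a3 had 1778, 2176 and 2182 normalized counts after restimulation, 2159, 1952 and 2459.6 with CM-4620 and 2389.7, 2347 and 2704 with CsA, the last above all restimulated libraries without inhibitor. Atp2b1 had 877, 867 and 720.2, then 1089, 998 and 934 with CM-4620 and 996, 1061 and 897 with CsA, both groups above the restimulated libraries without inhibitor. These differences passed neither threshold, at 0.28 (SE 0.09, adjusted p = 0.0787) for Atp2a3 with CsA and, for Atp2b1, at 0.30 (SE 0.10, adjusted p = 0.106) with CM-4620 and 0.26 (SE 0.10, adjusted p = 0.142) with CsA. Kcnn4 had 747, 721 and 401 with CM-4620 and 938, 1109 and 453 with CsA, which overlapped the restimulated libraries. Slc8b1 had 37.3, 31.4 and 47.2 after restimulation, 32.6, 31.7 and 18.4 with CM-4620 and 40.9, 36.9 and 36.0 with CsA. Mcu had 64.5, 87.4 and 62.7 after restimulation, 67.3, 93.3 and 60.5 with CM-4620 and 80.7, 94.4 and 69.6 with CsA. With either inhibitor the libraries of both genes overlapped those of restimulated iTregs.

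CM-4620 changed none of the 9 members tested past both thresholds in limma, against 3.3% of all genes (1.5% higher, 1.79% lower), and none with edgeR or DESeq2. Libraries of 5 did not overlap those of restimulated iTregs, against 26.3% of all genes. At an unadjusted p under 0.05 there were 4, Trpm4, Atp2a2, Atp2b1 and Atp2b4. Trpm4 had 144, 147 and 145 normalized counts with CM-4620, all below the restimulated libraries without it and above the resting ones. Its difference from restimulated iTregs was -0.42 (SE 0.11, adjusted p = 0.0309). Atp2b4 had 553, 588 and 507 with CM-4620, again all below the restimulated libraries without it, at -0.36 (SE 0.08, adjusted p = 0.0128). Atp2a2 had 681, 671 and 647 and was above them, at 0.31 (SE 0.08, adjusted p = 0.0208). These 3 values have the opposite sign of the restimulation values, and both comparisons share the restimulated libraries. For Kcna3 the difference was 0.63 with an interval of -0.12 to 1.37, and for Kcnn4 -0.29 with -1.17 to 0.59.

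CsA also changed none of the 9 members past both thresholds in limma, edgeR or DESeq2, against 2.92% of all genes (1.57% higher, 1.35% lower), and 3 (Atp2a2, Atp2a3 and Atp2b1) had an unadjusted p under 0.05. Libraries of 4 did not overlap, against 28.9% of all genes. Trpm4 had 171, 160.1 and 195 normalized counts with CsA, which overlapped the restimulated libraries, at -0.16 (SE 0.11, adjusted p = 0.449). Atp2a2 had 615, 634 and 598, above all restimulated libraries without inhibitor, at 0.20 (SE 0.08, adjusted p = 0.131). Atp2b4 had 613, 616 and 670.1, below them, at -0.15 (SE 0.08, adjusted p = 0.279). Kcna3 had 11.2, 19.5 and 31.2, with a difference of 0.75 (SE 0.35, adjusted p = 0.22). Set against each other, CM-4620 and CsA differed in none of the 9 past both thresholds with any of the 3 tools, against 0.36% of all genes, libraries of 4 did not overlap, against 19.2% of all genes, and Trpm4 (-0.27, interval -0.51 to -0.03) and Atp2b4 (-0.21, interval -0.38 to -0.03) had an unadjusted p under 0.05. The intervals do not show that the inhibitors act alike on these genes.

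**Figure D5:**
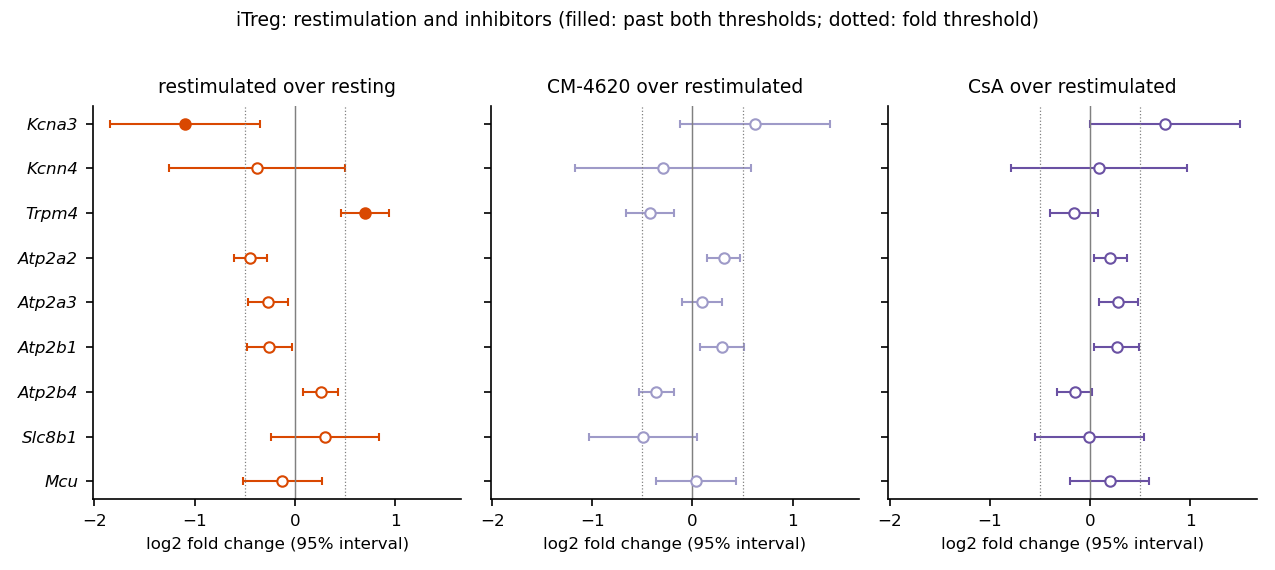
Log2 fold change (x axis, with 95% intervals) of the 9 tested genes (y axis) on restimulation of iTregs (left) and with CM-4620 (middle) or CsA (right) over restimulated iTregs; filled points passed both thresholds, dotted lines mark the fold threshold. Kcna3 and Trpm4 are the filled points, and no point is filled in the inhibitor panels.

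Of 89 other genes with a symbol that starts with Kcn, 16 reached the level for a test in the 15 libraries of resting and activated cells. These genes include accessory subunits and regulators of potassium channels beside the channels themselves. On activation 3 rose and 7 fell in Tconvs, where 24.5% of all genes rose and 25.7% fell. Among those that fell, Kcnip2, Kcnmb3, Kcnmb4 and Kcnrg are accessory subunits or regulators. In tTregs 1 rose and 2 fell, shares close to those of all genes (11.9% and 10%). The largest changes in Tconvs were those of Kcnj16 (-4.49 on the log2 scale) and Kcnj8 (-2.90), both inward rectifiers, and of Kcnk5 (2.86) and Kcnk7 (2.69), both of the 2-pore family. In tTregs they were those of Kcnk7 (1.83), Kcnq5 (-1.34) and Kcnk5 (-0.74). Kcnk5, known for a background current, had 12.8 ± 3.84 normalized counts (SD, n = 3) in resting Tconvs, 90.0 ± 15.3 in resting tTregs and 561 ± 41.8 in resting iTregs. Its direction on activation thus differed between Tconvs and tTregs, at -3.59 (SE 0.26, adjusted p = 9.86e-08). Kcnj15, another inward rectifier, had 64.3 ± 8.85 in resting tTregs, 2.20 ± 1.60 in resting iTregs and no read in Tconvs. Kcnj16 had 109 ± 12.5 in resting Tconvs, 6.75 ± 2.65 in resting tTregs and no read in iTregs. In iTregs 1 of 9 tested genes rose on restimulation, where 6.7% of all genes did: Kcnk7, at 0.88 (SE 0.13, adjusted p = 0.000108). Kcnk7 was lower with CM-4620, at -0.70 (SE 0.13, adjusted p = 0.00285), and with CsA, at -0.57 (SE 0.13, adjusted p = 0.0129), and Kcnq5 was lower with CM-4620, at -1.17 (SE 0.33, adjusted p = 0.0446).

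Of 11 known regulators of T cell potassium channels, such as calmodulin and the histidine kinase Nme2, which activates KCa3.1, 3 rose and 4 fell on activation of Tconvs, against the 24.5% and 25.7% of all genes, and 3 rose and 3 fell in tTregs, against 11.9% and 10%. Nme2 rose in both, by 1.49 and 1.5 on the log2 scale. In resting iTregs 4 were higher and 2 lower than in resting Tconvs, against 32.8% and 30.8% of all genes, led by the calmodulin gene Calm3 at 2.68. Of the other TRPM channels, Trpm1 and Trpm7, 2 of 7, were tested. Both fell on activation of Tconvs, as did 25.7% of all genes. Trpm1 rose in tTregs, at 1.59 (SE 0.31, adjusted p = 0.00128), as did 11.9% of all genes, and Trpm7 was not called there.

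Among 9 other calcium pumps and pump partners 3 were tested. Basigin (Bsg) and neuroplastin (Nptn) are known as subunits that PMCA pumps need to reach the membrane. Bsg had 2078 ± 79.3 normalized counts in resting Tconvs, 2248 ± 720.1 in resting tTregs and 10187 ± 674 in resting iTregs, where it was higher than in Tconvs by 2.29 (SE 0.18, adjusted p = 2.33e-08). Nptn rose on activation of Tconvs by 0.81 (SE 0.15, adjusted p = 0.000355) and fell in tTregs, at -0.73 (SE 0.15, adjusted p = 0.00248). Of 8 other sodium-calcium exchangers 2 were tested, and 1 of them, Slc24a5, fell on activation in both cell types, from 16.4 ± 10.0 normalized counts in resting Tconvs and 15.4 ± 5.50 in resting tTregs. Of all genes 25.7% fell in Tconvs and 10% in tTregs.

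Of 11 partners of mitochondrial calcium uptake, 6 rose and 1 fell in activated Tconvs (24.5% and 25.7% of all genes) and 2 rose in activated tTregs (11.9%). The largest change was that of Mcub, a pore subunit known to lower uptake through the uniporter, from 83.2 ± 7.46 to 461 ± 22.2 normalized counts in Tconvs, at 2.46 (SE 0.10, adjusted p = 5.87e-11), and from 413 ± 54.6 to 1206 ± 83.6 in tTregs, at 1.55 (SE 0.10, adjusted p = 3.07e-07). It had 714 ± 29.9 in resting iTregs, 3.09 above resting Tconvs on the log2 scale. In the same cells Mcu itself did not pass the test against resting Tconvs. Of the 11 genes of store release and store-operated entry, 10 were tested: 6 fell in activated Tconvs (25.7% of all genes) and 4 in activated tTregs (10%). The largest falls in Tconvs were those of Ryr3 (-2.97), Orai2 (-2.24), Stim1 (-1.64) and Itpr2 (-1.01), and in tTregs that of Ryr3 (-2.18), which had few reads, with 13.2 ± 0.936 normalized counts in resting Tconvs. The ryanodine receptor gene Ryr2 had 51.7 ± 9.98 in resting tTregs, 0.313 ± 0.542 in resting Tconvs and 2.47 ± 2.67 in resting iTregs. The last 2 means rest on few reads, as 3 reads were worth 2.63 to 3.09 in resting Tconvs and 2.28 to 3.16 in resting iTregs. By QPCR the paper reports suppressed Ryr2 transcription in tTregs and in iTregs, for tTregs the opposite direction. The cause of this difference was not tested. In resting iTregs 5 of the 10 were lower than in resting Tconvs (30.8% of all genes), among them Ryr3 (-2.67), Orai2 (-2.45), Itpr2 (-1.86) and Stim1 (-1.55).

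Per kilobase of merged exons, Atp2a3 was the highest member in 7 of the 8 groups. In activated Tconvs it was Kcnn4, at 418 ± 183 normalized counts per kilobase (SD, n = 3). This scale adjusts for gene length only roughly, as it merges the exons of all annotated transcripts, whichever were expressed. Merged exons came to 5115 bases for Kcnn4 and 1902 for Kcna3, and ranks between genes are approximate. Atp2b1 was the third in resting Tconvs (101 ± 6.54). Kcna2 was the lowest in every group but resting Tconvs, where Atp2b4 was (2.66 ± 0.83). In resting iTregs Atp2b4 stood at 48.2 ± 4.97 and Atp2b1 at 64.4 ± 8.44. Kcnn4 exceeded Kcna3 on this scale in all groups: 221.2 ± 54 against 44.2 ± 3.87 in resting Tconvs and 209.3 ± 121.6 against 13 ± 1.69 in resting iTregs.

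For each member, the genes with the closest pattern of log2 levels over the 24 libraries were sought among those with a mean of at least 100 normalized counts. The closest were Cdip1 for Kcna2 (Pearson's r 0.98), Ms4a6b for Kcna3 (0.95), Ak3 for Kcnn4 (0.92), Dpy19l3 for Trpm4 (0.90), Tmem97 for Atp2a2 (0.96), Map4 for Atp2a3 (0.95), Svil for Atp2b1 (0.96), Abhd18 for Atp2b4 (0.99), Atf7 for Slc8b1 (0.90) and Zbtb33 for Mcu (0.77). The second closest was Nfil3 for Atp2b4 (0.98) and Itgae for Atp2a3 (0.95). These points share libraries and groups, so the values describe a likeness of pattern. Among the members, r was highest between the neighbours Kcna2 and Kcna3 (0.87) and lowest between Kcna2 and Atp2a2 (-0.86), followed by Kcna2 and Atp2b4 (-0.81) and by Atp2a2 and Slc8b1 (-0.81).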

How the data were processed

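RNA-seq libraries (SMART-seq2) of 24 samples were analysed. Per the study's methods and the submitters' processing notes, the authors trimmed reads with cutadapt 1.18, aligned them with STAR 2.5.3 to GRCm38, quantified GENCODE M23 genes with RSEM 1.3.0 and normalized with DESeq2 1.26. The deposited values are normalized counts, a signal made of gene counts divided by 1 size factor per library. All values were whole multiples (tolerance 0.01) of the smallest value of their library, so reads were recovered for the count tests. Whether counting used strand is not stated.

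Groups came from the labels. log2(normalized count + 1) was fitted with limma 3.58.1 (R 4.3.3, trend) for genes that reached 10 normalized counts in 3 or more libraries: in 15 libraries (resting and activated cells, 11495 genes), in the 12 iTreg libraries (11105) and, for restimulated iTregs against activated tTregs, in all 24 (11725). P-values are two-sided and Benjamini-Hochberg adjusted over all genes tested, and intervals are 95%. The script was tested on simulated data. Alternatives were edgeR 4.0.16 and DESeq2 1.42.0 on the recovered reads, own size factors, quantile normalization, other pseudocounts and filters, no fold threshold, other sets of libraries, a replicate block and each library left out.

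The 10 members and the gene lists were chosen with earlier results of these data known. Every member was described; the lists are given by counts, with values for at most 4 genes of large change past the thresholds in the comparisons described; not every list and comparison is described. Replicates differed by 2.69 to 36.3 times the counting variance, so intervals from counting error alone would be too narrow.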

Additional observations from a re-analysis of the deposited data

Results flagged for a closer look

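For 5 of the 10 genes the response to activation differed between tTregs and Tconvs in a test of the difference itself (limma interaction term, tTreg minus Tconv, n = 3 libraries in each of the 4 groups), where 34.7% of all genes tested differed. Kcna3 had a difference of -1.19 (SE 0.28, adjusted p = 0.00371) on the log2 scale, and all 3 activated libraries were above the resting ones in Tconvs and below them in tTregs. Trpm4 had 1.09 (SE 0.28, adjusted p = 0.00602). Atp2b4 had -1.27 (SE 0.28, adjusted p = 0.0022), with activated libraries above the resting ones in Tconvs and below them in tTregs. Atp2a2 had -0.67 (SE 0.19, adjusted p = 0.0115) and Atp2b1 0.61 (SE 0.15, adjusted p = 0.00409), each with a larger absolute response in Tconvs.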

How the results depend on the processing

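Of the values of the members compared, 2175 kept both their direction and their side of the thresholds, 54 no longer passed, 29 passed where they had not and 27 changed sign, and none of these 27 passed the thresholds as reported or under the alternative. The number of members changed by tTreg activation, 3 as reported, was 5 with the adjusted p alone and 1 when no library but the 6 of tTregs entered the fit, and ran from 1 to 3 when 1 library was left out. The number changed by iTreg restimulation, 2 as reported, was 5 with the adjusted p alone, 1 with a filter at 100 normalized counts, since Kcna3 is then not tested, and 1 with DESeq2, and ran from 1 to 2 when 1 library was left out. With CM-4620 it was 0 as reported and 3 with the adjusted p alone. The cause was not tested where the setting itself does not give it. When 1 library was left out, the number of members called ran from 5 to 6 for Tconv activation and for the difference between the responses, from 3 to 5 for resting and from 6 to 9 for activated tTregs against Tconvs, from 5 to 7 for resting iTregs against activated Tconvs and for restimulated iTregs against activated tTregs, and stayed at 7 for resting iTregs against resting Tconvs and against resting tTregs. The cause of the changes of sign was not tested. With quantile normalization the sign changed for Mcu in Tconv activation (-0.0037) and in activated tTregs against Tconvs (-0.015), Trpm4 in resting iTregs against tTregs (-0.0068) and Slc8b1 with CsA (0.0015). When 1 library was left out, the value of Kcnn4 ran from -0.16 to 0.86 in tTreg activation, -1.01 to 0.0092 in the difference between the responses, -0.65 to 0.19 in resting iTregs against Tconvs, -0.43 to 0.55 in restimulated iTregs against activated tTregs, -0.78 to 0.060 on restimulation and -0.27 to 0.48 with CsA. In the same way Kcna3 ran from -0.025 to 0.36 in resting tTregs against Tconvs and -0.48 to 0.22 in CM-4620 against CsA, Trpm4 from -0.018 to 0.20 and Atp2a3 from -0.15 to 0.016 in resting iTregs against tTregs, Atp2a2 from -0.049 to 0.22 in tTreg activation, Atp2b1 from -0.033 to 0.088 in CM-4620 against CsA, Slc8b1 from -0.14 to 0.14 with CsA, and Mcu from -0.040 to 0.16 in activated tTregs against Tconvs and -0.14 to 0.19 with CM-4620. The labels do not tie replicate numbers to animals or days. In the 15 libraries, deviations from the group means had a mean correlation of -0.007 between samples of the same number and 0.0034 between others. In the iTreg libraries these were 0.15 (from -0.039 to 0.30) and -0.075, and 10 of 12 libraries correlated best, on average, with their own number, a hint of pairing from the data and not from the design. With the replicate number as a block, the number of members called was the same in all 13 comparisons, and over all genes it was 1500 against 1425 on iTreg restimulation and 420 against 366 with CM-4620. Depth limits Kcna2, at 0 to 68 reads a library, and Kcna3 in iTregs most, and the wide spread within groups limits Kcnn4.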
